A study of Homo sapiens with 6 samples.

Results

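The 56 genes described here encode the machinery that moves proteins between the endoplasmic reticulum (ER) and the Golgi apparatus. They were chosen by name for their known function, and 54 of them were measured among 18244 genes in all. KDELR2 and USO1 are not analysed here, because no probe set carried either as its only symbol. The 54 fall into 15 genes of the COPII coat and ER exit sites, 14 of the COPI coat and ARF GTPases, 13 of 14 cargo receptors, 6 of 7 tethers and 6 SNAREs.

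The study profiled A549 cells, an established human lung adenocarcinoma line, with 1-colour Affymetrix arrays. In one group a lentivirus delivered a short hairpin RNA aimed at TIGD1, a domesticated transposase gene, and in the other it delivered a negative control hairpin. Each group had 3 arrays, and 1 hairpin was used per group, so effects of the hairpin sequence and of its target cannot be told apart. Nothing in the labels says that the arrays of a group came from separate cultures, so p-values cover only the spread of these arrays, which could be technical. All cells were of the same line and medium and had received lentivirus.

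TIGD1 did not pass as lower. Its probe set read 6.88, 6.84 and 6.86 on the arrays labelled shTIGD1, against 6.96, 6.93 and 6.85 on the arrays labelled shControl, in log2 units (difference -0.06, SE 0.04, limma adjusted p = 0.389). The groups overlapped, and every direction below is therefore that of the labels. The epithelial keratin KRT18 averaged 14.15 on the arrays labelled shTIGD1 and 14.19 on those labelled shControl. Of 8 epithelial and A549 markers 6 had a difference above 0 and 2 rose, EPCAM by 0.87 (means 8.50 and 7.63, limma adjusted p = 0.000628) and GPX2 by 0.21. In contrast, 6 of 9 immune markers had a mean under 5, a level treated here as near background. Above it were CD14, which averaged 8.21 in both groups, CSF1R (5.66 and 5.72) and NKG7 (5.25 and 5.29). Among markers of other cell types none rose. Of 9 immune markers 1 fell (ITGAM, 4.61 and 4.80, itself near background), as did 1 of 8 endothelial and fibroblast markers (COL3A1, 5.32 and 5.88). Over all 18244 genes 9.81% rose, 14.0% fell and 7208 had a difference above 0. The part of any of these markers in the results below was not tested. Differences are log2 values of the arrays labelled shTIGD1 minus those labelled shControl, for the brightest probe set of each gene, and "rose" or "fell" means a limma adjusted p under 0.05 over all 18244 genes.

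Cargo leaves the ER in vesicles with a COPII coat. The GTPase SAR1 recruits the inner coat of SEC23 and SEC24, on which the outer cage of SEC13 and SEC31 assembles. COPI vesicles, whose coat of several subunits is recruited by ARF1, carry escaped ER proteins and recycling receptors back. Receptors of the p24 (TMED), lectin and KDEL families select cargo, tethers catch arriving vesicles, and SNARE proteins fuse them. In secretory cells many of these genes are known targets of the unfolded protein response, a programme run by the factors XBP1 and ATF6 that raises ER capacity.

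Among the 54 measured genes, 14 rose, where 9.81% of all genes did, and 6 fell, where 14.0% of all genes did (23.8% in either direction). In bulk RNA, a change in all cells and a change in some of them cannot be told apart. The other 34 did not pass, 16 of them with a difference above 0 and 18 below. In 21 genes every array labelled shTIGD1 read above every array labelled shControl (16.9% of all genes), and in 13 every one read below (25.5% of all genes; 42.3% in either direction). The changes were small: the rises ran from 0.12 to 0.43, the median absolute difference of the called genes was 0.21 (0.24 for all called genes), and GOSR2 alone reached 1.5-fold, where 1.11% of all genes were called at that size. Against a minimum of 1.2-fold, limma's treat test called 0 of them higher (2 at an unadjusted p under 0.05) and only GOSR2 lower, where 0.959% of all genes were called higher and 0.477% lower. The median difference was 0.03, against -0.04 over all genes.

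These genes are expressed well above background, from 6.96 to 12.77 in log2 units, and none had a mean under 5. Among genes with a mean of at least 8, a cut chosen after seeing the data, 12 of 47 transport genes rose and 5 fell, beside 16.3% higher and 22.3% lower of all 6954 such genes. Leaving out 1 array gave 7 rises without shTIGD1 replicate 2, 10 without shControl replicate 2, and 8 without each of the other arrays in turn. Over all genes the rises dropped from 1789 to between 1177 and 1474 in these fits. Whether a call that ended reflects the array left out or the smaller number of arrays was not tested. COPE, COPZ1, KDELR3, SAR1A, SEC24D, TMED4 and TMED7 rose in all 6 such fits, and GOSR1, GOSR2, KDELR1 and SEC31A fell in all 6. Hybridization and poly-A spike controls differed by -0.22 and -0.32 between the arrays labelled shTIGD1 and those labelled shControl, so that levelling the arrays on them adds the size of that shift to every difference and moves the median of all genes to 0.18 or 0.29. By construction a difference above 0 stays above 0 under these scalings, and each fall smaller than the added amount turns above 0. Of the 6 falls only that of GOSR2 was larger than both added amounts. All 14 rises also passed under both scalings, which is not fixed by construction, since each array gets its own offset.

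**Figure D1:**
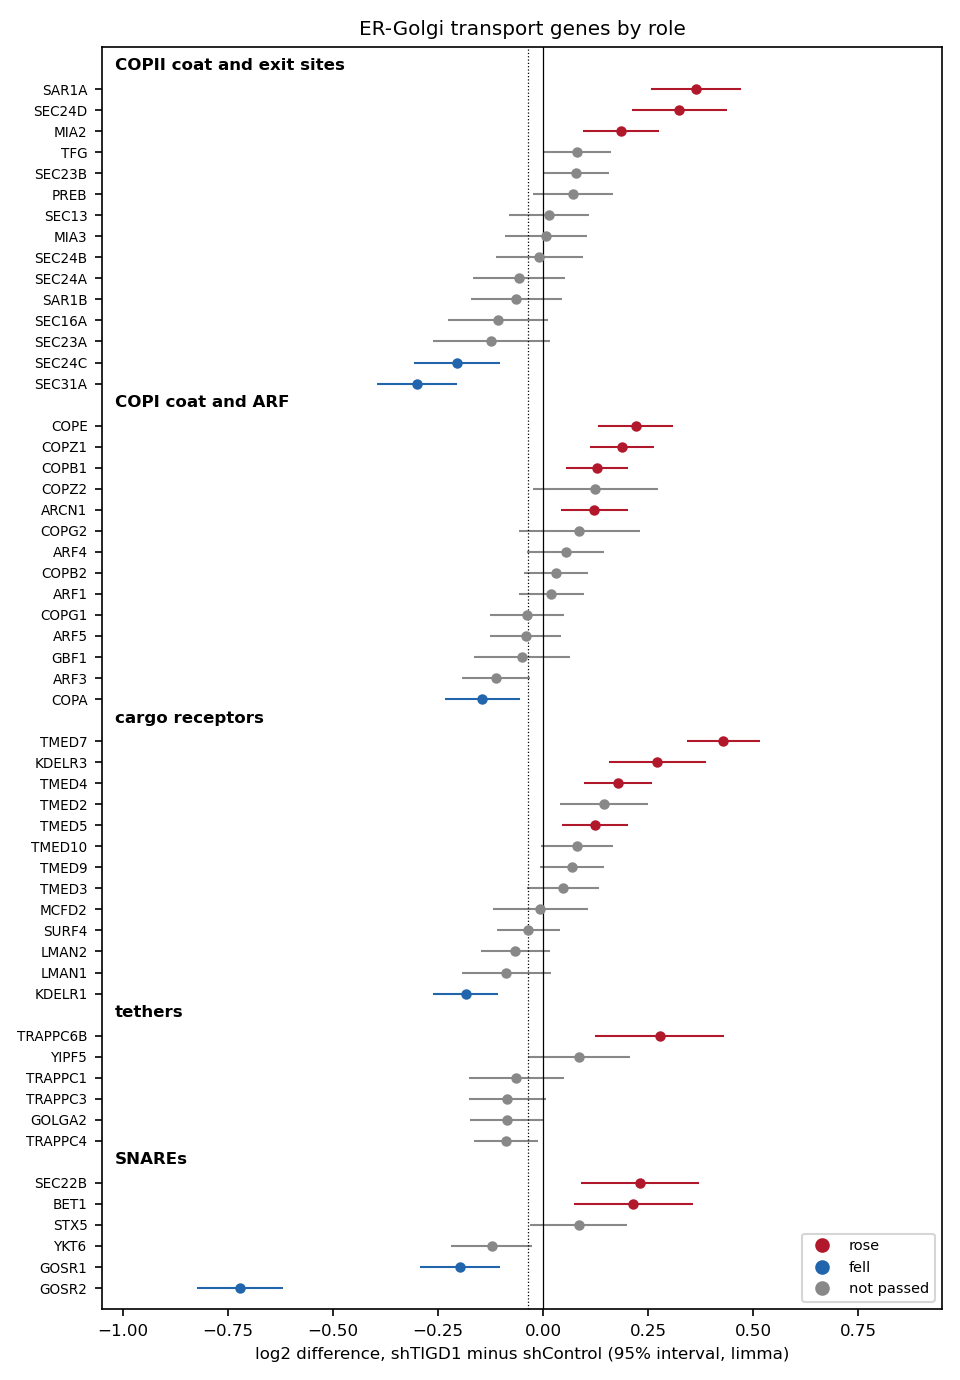
Log2 difference of each of the 54 measured genes, arrays labelled shTIGD1 minus shControl, by role, with 95% limma intervals from 3 arrays per group; the dotted line marks the median of all genes. Rises and falls occur within most roles, and the GOSR2 interval, from -0.82 to -0.62, lies apart from all others; of the falls, those of SEC24C, COPA, KDELR1 and GOSR1 turn above 0 with hybridization control scaling, and that of SEC31A also with poly-A control scaling.

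Promoter sequences were examined because ER stress factors bind known short motifs. RefSeq promoters (GRCh38.p14, 250 bases before to 50 after a start) were found for 49 of the 56 genes (not MIA2, TMED9, SEC24D, ARF4, TMED4, USO1 and KDELR2), with 65 promoters, and both strands were searched. The letters TGACGTG, the core of the unfolded protein response element (UPRE), occurred in 15 of the 65 promoters (23.1%; 13 genes), against 1.97% of 35116 promoters in the table and 2.12% of the protein-coding ones. CCACG, the end of the ER stress element, occurred in 81.5% of the promoters, against 38.1% of all and 43.1% of protein-coding ones. The complete element, CCAAT and CCACG with 9 bases between them, occurred in 0 of the 65 and in 0.0769% of all. Base composition was not taken into account for any motif. TGACGTCA, the cyclic AMP response element, was present in 2 of the 65 (3.08%), against 1.85% of all and 2.26% of the protein-coding ones. Both are overlapping promoters of 1 gene, TRAPPC1, and share the same match. Matches are not independent, since the complete ER stress element contains its own end, the UPRE core followed by G contains that end on the opposite strand, and overlapping promoters of a gene share matches.

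By direction of change, TGACGTG was found in 3 of 11 risen genes with a promoter in the table, in 1 of 6 fallen ones and in 9 of 32 that did not pass. CCACG was found in 10 of the 11, 5 of the 6 and 25 of the 32. The 4 called genes with a TGACGTG match are shown to let the windows be compared, 5′ to 3′ on the gene's strand. The match, or its reverse complement CACGTCA, is in capitals. A match here is a description of letters and not evidence of binding. They are KDELR3 (chr22:38467846-38468145, plus strand), COPE (chr19:18919338-18919637, minus strand), COPB1 (chr11:14499762-14500061, minus strand) and COPA (chr1:160343201-160343500, minus strand).
KDELR3: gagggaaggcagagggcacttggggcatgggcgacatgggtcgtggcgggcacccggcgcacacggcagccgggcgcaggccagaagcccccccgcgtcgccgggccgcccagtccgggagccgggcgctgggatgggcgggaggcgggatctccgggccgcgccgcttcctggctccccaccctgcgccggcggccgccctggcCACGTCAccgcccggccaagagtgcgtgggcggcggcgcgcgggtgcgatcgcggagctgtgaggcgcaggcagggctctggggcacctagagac
COPE: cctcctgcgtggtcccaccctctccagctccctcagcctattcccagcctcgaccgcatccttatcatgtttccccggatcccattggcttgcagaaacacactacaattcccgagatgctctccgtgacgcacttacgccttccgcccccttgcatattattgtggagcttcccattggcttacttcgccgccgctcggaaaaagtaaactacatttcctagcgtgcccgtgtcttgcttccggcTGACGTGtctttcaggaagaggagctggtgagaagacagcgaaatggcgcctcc
COPB1: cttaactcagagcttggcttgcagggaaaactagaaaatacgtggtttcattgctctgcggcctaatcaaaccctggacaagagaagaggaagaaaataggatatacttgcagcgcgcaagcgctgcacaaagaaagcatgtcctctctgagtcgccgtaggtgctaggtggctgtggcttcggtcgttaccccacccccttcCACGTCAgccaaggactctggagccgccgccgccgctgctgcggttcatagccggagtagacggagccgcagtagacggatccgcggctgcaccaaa
COPA: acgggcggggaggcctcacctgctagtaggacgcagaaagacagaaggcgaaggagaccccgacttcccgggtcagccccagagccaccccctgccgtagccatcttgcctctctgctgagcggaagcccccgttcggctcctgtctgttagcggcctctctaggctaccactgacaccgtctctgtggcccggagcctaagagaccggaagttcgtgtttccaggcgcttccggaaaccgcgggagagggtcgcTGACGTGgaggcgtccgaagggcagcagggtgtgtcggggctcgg
The matches in COPE and COPA lie at the annotated start, from -4 to 2 and from 5 to 11 where the start is 0, and those in COPB1 and KDELR3 lie upstream, from -47 to -41 and from -45 to -39.

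In the COPII group 3 of 15 genes rose (20.0%) and 2 fell (13.3%), a mixed pattern, beside 9.81% and 14.0% of all genes. Its falls are near that share, and no role was tested as a set. SAR1A, the GTPase that starts coat assembly, had 9.69, 9.70 and 9.61 on the arrays labelled shTIGD1, against 9.24, 9.33 and 9.33 on the arrays labelled shControl. Every array labelled shTIGD1 read above all others, a rise of 0.36 (SE 0.04, 1.29-fold, limma adjusted p = 0.00292). Of its 2 dimmer probe sets 1 rose, by 0.65, and the other stood at 0.07. Its paralogue SAR1B had a difference of -0.06 (interval -0.17 to 0.04, adjusted p = 0.359). SEC24D, an inner-coat subunit that binds cargo, read 7.99, 8.02 and 7.93, against 7.69, 7.69 and 7.58, without overlap, and rose by 0.32 (SE 0.05, adjusted p = 0.00514), as did its next probe set (0.30). SEC24C, another cargo-binding subunit, read 9.79, 9.70 and 9.82, against 10.00, 9.99 and 9.94. It fell by 0.20 (SE 0.04, adjusted p = 0.0171), a difference of 0.01 with hybridization control scaling, and its dimmest probe set rose by 0.34. The SEC24C call ended without shControl replicate 1.

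SEC31A, the outer cage subunit, had 9.80, 9.69 and 9.74 on the arrays labelled shTIGD1, against 10.06, 10.06 and 10.02 on the arrays labelled shControl. The groups did not overlap and the gene fell by 0.30 (SE 0.04, adjusted p = 0.00373), but its second probe set stood at 0.21, and the difference was 0.02 with poly-A control scaling. MIA2, which helps organise exit sites and load bulky cargo, rose by 0.19 (adjusted p = 0.0164), with 9.25, 9.27 and 9.24, against 9.11, 9.07 and 9.02, and 2 of its 5 probe sets rose. Without shTIGD1 replicate 1 or 2 the MIA2 call ended. The other genes of the group did not pass. SEC13 (0.01), MIA3 (0.01), SEC24B (-0.01) and SEC24A (-0.06) lay near 0. PREB, the activator of SAR1, was at 0.07, TFG, which organises exit sites, at 0.08 and the inner-coat subunit SEC23B at 0.08. The exit-site scaffold SEC16A (-0.11) and SEC23A (-0.12) stood below 0, but 2 dimmer probe sets of SEC23A rose, by 0.14 and 0.29. A dimmer probe set fell in SEC16A, by 0.18, and in SEC24A, by 0.21, which are falls that turn above 0 with control scaling.

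Of 14 genes of the COPI coat and ARF GTPases, 4 rose (28.6%) and 1 fell (7.14%), beside 9.81% and 14.0% of all genes. COPE, the epsilon subunit, read 10.69, 10.73 and 10.77 on the arrays labelled shTIGD1, against 10.48, 10.52 and 10.54 on the arrays labelled shControl. It rose by 0.22 (SE 0.04, limma adjusted p = 0.0086), and 4 of its 5 probe sets rose, with differences from 0.22 to 0.25. COPZ1, the zeta subunit, had 11.80, 11.78 and 11.78, against 11.61, 11.58 and 11.60, and rose by 0.19 (SE 0.03, adjusted p = 0.00821). Both genes were higher on every array labelled shTIGD1.

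COPB1, the beta subunit, read 11.87, 11.88 and 11.87, against 11.73, 11.76 and 11.74, a rise of 0.13 (adjusted p = 0.0272) that ended in all 6 fits leaving out an array, while its dimmer probe set stood at -0.26 without passing. ARCN1, the delta subunit, rose by 0.12 (adjusted p = 0.0421), a call that also ended in all 6 such fits, though its 2 dimmer probe sets rose by 0.48 and 0.46. COPA, the alpha subunit, was the fall, with 10.55, 10.52 and 10.52 on the arrays labelled shTIGD1, against 10.70, 10.71 and 10.62 on the arrays labelled shControl. Its difference of -0.15 (SE 0.04, adjusted p = 0.0341) became 0.07 with hybridization control scaling, and the call ended in every fit leaving out an array except without shControl replicate 3. ARF1, the GTPase that recruits the coat, was at 0.02 (adjusted p = 0.704), and its activator GBF1 at -0.05. ARF3 (-0.11, adjusted p = 0.0583), COPZ2 (0.12, adjusted p = 0.202), COPG1 (-0.04), COPG2 (0.09), ARF4 (0.05) and ARF5 (-0.04) did not pass. COPB2, another beta-type subunit, was at 0.03 with its brightest probe set, while a dimmer one rose by 0.44.

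Cargo receptors had 4 rises (30.8%) and 1 fall (7.69%) among 13, beside 9.81% and 14.0% of all genes. TMED7, a p24 protein that cycles between ER and Golgi, had the largest rise of the 54 genes, with 10.60, 10.58 and 10.55 on the arrays labelled shTIGD1, against 10.11, 10.16 and 10.18 on the arrays labelled shControl. The difference was 0.43 (SE 0.04, 1.35-fold, limma adjusted p = 0.000997), and 3 of its 4 probe sets rose, with 0.43, 0.54 and 0.61. Of its family, TMED4 read 9.98, 10.03 and 9.98, against 9.82, 9.84 and 9.80, and rose by 0.18 (adjusted p = 0.0125), although another of its probe sets fell by 0.33. TMED5 rose by 0.12 (adjusted p = 0.037), a call that ended in all 6 fits leaving out an array, while its 4 dimmer probe sets rose by 0.53 to 0.62. TMED2 had 12.62, 12.72 and 12.60, against 12.52, 12.51 and 12.47, and missed the threshold (0.15, adjusted p = 0.0546), though both dimmer probe sets rose, by 0.16 and 0.50. TMED3 (0.05), TMED9 (0.07) and TMED10 (0.08) did not pass.

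The KDEL receptors, which return ER chaperones from the Golgi, split. KDELR3 read 8.56, 8.55 and 8.61 on the arrays labelled shTIGD1, against 8.23, 8.30 and 8.38 on the arrays labelled shControl, and rose by 0.27 (SE 0.05, 1.21-fold, limma adjusted p = 0.00963), with both probe sets. KDELR1 read 11.53, 11.48 and 11.52, against 11.69, 11.71 and 11.69, and fell by 0.18 (SE 0.03, adjusted p = 0.00964), with all 3 probe sets, though its difference was 0.03 with hybridization control scaling. Each gene's groups were apart in its own direction. The lectin LMAN1, which carries clotting factors with its partner MCFD2, was at -0.09 with its brightest probe set, and MCFD2 at -0.01 (adjusted p = 0.206 and adjusted p = 0.94). Dimmer probe sets of both rose, up to 0.63 in LMAN1 and 0.52 in MCFD2, of whose 4 probe sets a pair held identical values. SURF4, a receptor of secreted proteins, was at -0.04 with its brightest probe set and LMAN2 at -0.07 with its only one, and neither passed. Of the 6 probe sets of SURF4, however, 4 rose, and the highest difference was 0.32.

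**Figure D2:**
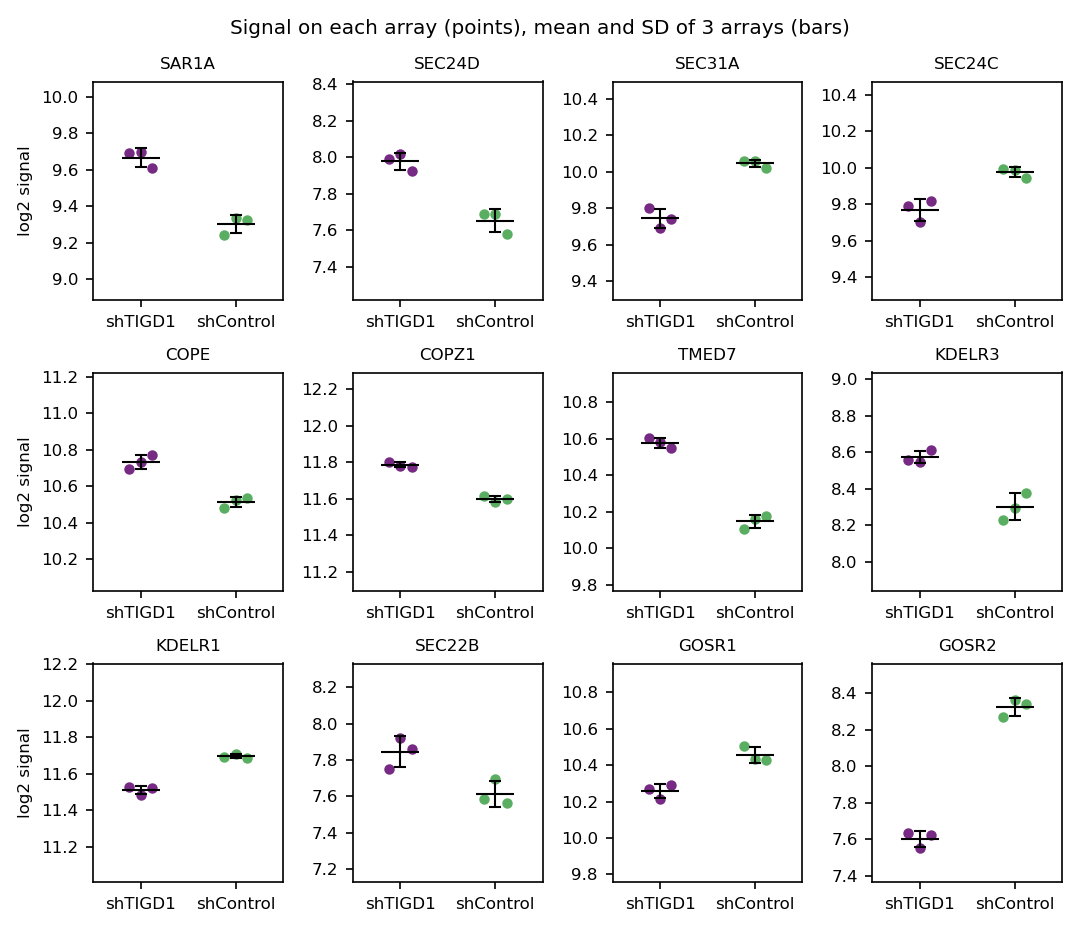
Log2 signal of 12 genes on each array, arrays labelled shTIGD1 left of those labelled shControl, with points for the 3 arrays and bars for the mean and SD. The groups do not overlap in any panel; GOSR2 lies furthest apart, and SEC24C, KDELR1 and GOSR1 turn above 0 with hybridization control scaling and SEC31A with poly-A control scaling.

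Of the 6 tethers TRAPPC6B rose and none fell, beside 9.81% and 14.0% of all genes. In a group of 6 genes 1 call makes 16.7%. TRAPPC6B, a subunit of the TRAPP tethering complexes, had 8.29, 8.44 and 8.29 on the arrays labelled shTIGD1, against 7.97, 8.15 and 8.08 on the arrays labelled shControl. The difference was 0.28 (SE 0.06, limma adjusted p = 0.0242), and its other probe set rose by 0.63, but the call remained in only 1 of the 6 fits leaving out an array, without shControl replicate 2. TRAPPC1 (-0.06), TRAPPC3 (-0.08), TRAPPC4 (-0.09, adjusted p = 0.0915), the Golgi matrix protein GOLGA2 (-0.09) and YIPF5 (0.09) did not pass.

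Of the 6 SNAREs, 2 rose and 2 fell (33.3% each), beside 9.81% and 14.0% of all genes. GOSR2, a Golgi SNARE also called membrin, had 7.63, 7.55 and 7.62 on the arrays labelled shTIGD1, against 8.27, 8.36 and 8.34 on the arrays labelled shControl. Its values were lower on all arrays labelled shTIGD1, a fall of 0.72 (interval -0.82 to -0.62, 1.65-fold lower, limma adjusted p = 0.000349). All 5 of its probe sets fell, the others by 0.13 to 0.33, so the size depends on the probe set used, and those of under 0.22 turn above 0 with hybridization control scaling. The fall kept its direction and passed in all 19 alternative fits.

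GOSR1, another SNARE of the Golgi, read 10.27, 10.22 and 10.29, against 10.50, 10.44 and 10.43, and fell by 0.20 (SE 0.04, limma adjusted p = 0.0152). This was 0.02 with hybridization control scaling, and its other 4 probe sets stood between 0.00 and 0.18 and did not pass. SEC22B, a SNARE on ER-derived vesicles, rose by 0.23 (SE 0.06, adjusted p = 0.0332), with 7.75, 7.92 and 7.86, against 7.58, 7.69 and 7.56. BET1, which sits on the same vesicles, rose by 0.22 (adjusted p = 0.0431), with 9.63, 9.80 and 9.68, against 9.41, 9.55 and 9.51, and 4 of its 5 probe sets rose. The SEC22B call ended without shTIGD1 replicate 2 or 3 or shControl replicate 1 or 3, and the BET1 call in all 6 fits leaving out an array. STX5 (0.08) and YKT6 (-0.12, adjusted p = 0.0713) did not pass.

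**Figure D3:**
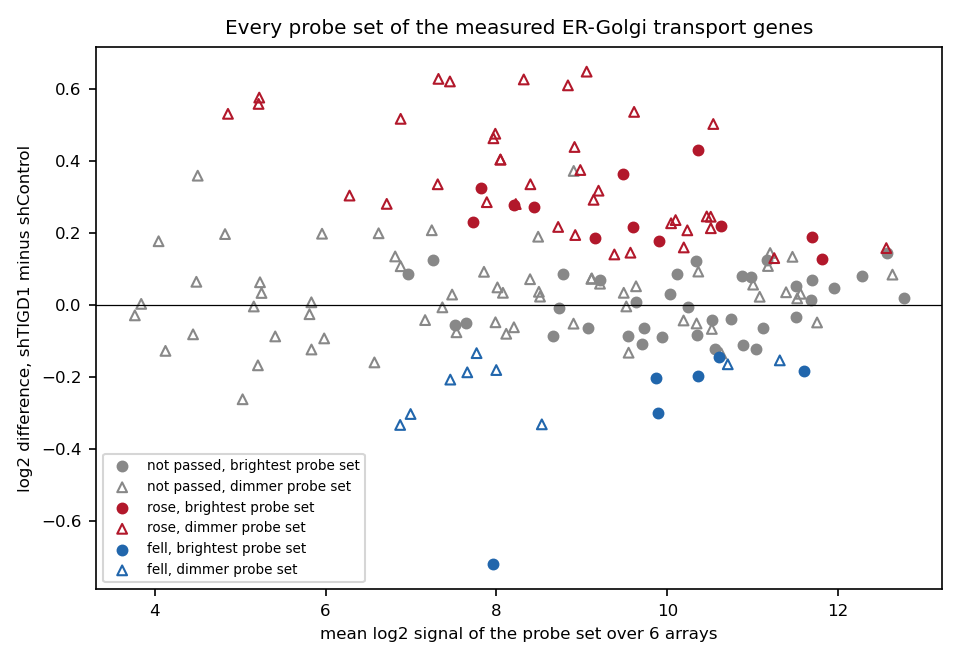
Log2 difference, arrays labelled shTIGD1 minus shControl, against mean log2 signal over 6 arrays for all 163 probe sets of the 54 genes, circles for the brightest and triangles for dimmer probe sets of a gene, with calls adjusted over all probe sets. Dimmer probe sets hold most of the rises above 0.4, and the lowest point is the brightest GOSR2 probe set at -0.72.

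Several genes depended on which probe set was read. With p-values adjusted over all probe sets, 50 of the 163 rose and 15 fell, and the brightest of ARCN1 and of TMED5 no longer passed. Among 47 genes with several, 19 had calls only upward, 7 only downward, 2 in both directions (SEC24C and TMED4) and 19 none. In 9 of them (ARCN1, COPB2, LMAN1, MCFD2, SEC23A, SURF4, TMED10, TMED2 and TMED5) a dimmer probe set rose where the brightest did not pass. Such counts per gene were not made for all 11825 genes with several probe sets, so they have no share to be read against. Of the 109 dimmer probe sets of the 47 genes 34.9% rose and 8.26% fell, beside 13.4% and 9.42% of the dimmer probe sets of all genes. Among dimmer probe sets with a mean of at least 6 the shares were 40.2% and 10.3%, beside 21.7% and 14.6% of those of all genes. The brightest of the same 47 genes had 23.4% and 12.8%, beside 10.9% and 14.1%.

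Paralogues were set against each other by their change, since levels of different probe sets cannot be compared. SAR1A moved 0.43 higher relative to SAR1B, SEC24C moved -0.53 relative to SEC24D, and GOSR1 moved 0.52 relative to GOSR2. Only the brightest probe set of each gene was used. Differences of the SEC24C probe sets ranged from -0.20 to 0.34 and those of GOSR2 from -0.72 to -0.13. Those of SEC23A ranged from -0.12 to 0.29, with 2 of 4 probe sets risen, and those of SEC23B from 0.03 to 0.08. The sign of SEC23A against SEC23B therefore depends on the probe set. Of all single genes 42.3% did not overlap between the groups, and no share was computed for other pairs of genes. The groups did not overlap in 6 of the 10 pairs. These 6 pairs also hold SEC23A against SEC23B (-0.20), COPG1 against COPG2 (-0.12) and ARF3 against ARF5 (-0.07). The exact permutation test, two-sided, gave p = 0.1 for each of these pairs, the smallest that it allows with 3 arrays against 3, and an adjusted p of 0.167 over the 10 pairs compared, so that this test cannot pass 0.05. SEC24A against SEC24B (-0.05) and LMAN1 against LMAN2 (-0.02) overlapped between the groups. These are differences of values within an array, so the control scalings do not change them.

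Related genes were counted for comparison, also chosen by name. Of 93 measured genes in 5 related lists, 22 rose (23.7%) and 10 fell (10.8%), beside 9.81% and 14.0% of all genes. Among all genes with a mean of at least 8 the shares were 16.3% and 22.3%. Of 23 genes of ER entry and signal peptide removal, 8 rose (34.8%) and 2 fell (8.70%). The rises were led by the translocon partner TRAM1 (0.52, limma adjusted p = 0.000394) and included SPCS2 (0.41), SEC11C (0.31) and SRP9 (0.31), while SEC61A2 stood at -0.27. Regulators of secretory genes had 5 rises (41.7%) and 1 fall (8.33%) of 12. XBP1, the main factor that binds UPRE sites, read 11.85, 11.88 and 11.89 on the arrays labelled shTIGD1, against 11.47, 11.44 and 11.46 on the arrays labelled shControl, and rose by 0.42 (adjusted p = 0.000799). The stress sensor EIF2AK3 (0.39), the protease gene MBTPS2 (0.26) and CREB3L2 (0.22) also rose, whereas MBTPS1 fell by 0.29. ATF6 rose by 0.18 (limma adjusted p = 0.0452), while its second probe set stood at -0.10 and its dimmest rose by 0.43. The other 6 did not pass, among them ATF6B (-0.18), ERN1 (-0.08) and ATF4 (-0.03), and the median difference of the 12 was -0.02.

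Further COPI and retrograde factors had 2 rises (14.3%) and 1 fall (7.14%) of 14, beside 9.81% and 14.0% of all genes. Among them were ARFGAP3, a GTPase activator for ARF1, at 0.48 (limma adjusted p = 0.00506), ZW10 at 0.21 and ARFGAP1 at -0.18. The other Golgi tethers had 5 rises (19.2%) and 3 falls (11.5%) of 26, among them BLZF1 (0.37) and COG4 (-0.27). Additional early secretory factors had 2 rises (11.1%) and 3 falls (16.7%) of 18, near the shares of all genes, with ERGIC1 at -0.29 and YIF1A at -0.21. Outside the early pathway, clathrin, adaptor and retromer genes had 4 rises (20.0%) and 6 falls (30.0%) of 20, with AP3M1 at 0.32 and AP2B1 at -0.28. The exocyst had 1 of each of 8 (12.5%), EXOC6 at 0.28 and EXOC7 at -0.16. Falls in these lists of under 0.22 turn above 0 with hybridization control scaling and those under 0.32 with poly-A control scaling.

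**Figure D4:**
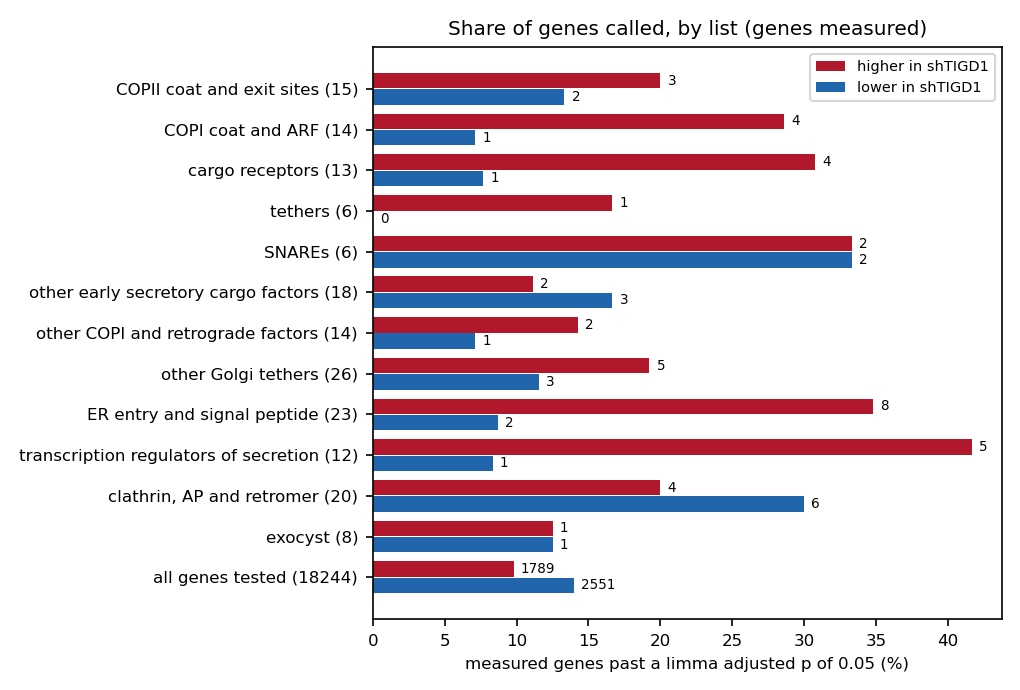
Share of measured genes (%) called higher or lower in the arrays labelled shTIGD1 at a limma adjusted p of 0.05, by list, with the counts at the bars and the number measured in brackets. All genes tested stand at the bottom with 9.81% higher and 14.0% lower; the number of all genes called lower is 376 when levelled on hybridization controls and 97 on poly-A controls.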

How the data were processed

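Total RNA of 6 samples was amplified, labelled with biotin and hybridized to 1-colour arrays, per the labels' protocols. Values were deposited by the authors as log2 probe set signals. GCOS and RMA were used, per the submitters' processing notes, with versions not given in the sources used here. Base 2 was read from the range of values. RMA makes array distributions alike, so a shift shared by most genes would be removed before deposit. Of 49395 probe sets, 102 were controls and 45278 had 1 symbol. Each gene took its probe set with the highest mean. Array medians lay between 6.27 and 6.28, no 2 arrays were copies (184 equal values at most), and the number of arrays limits the precision.

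Groups came from the titles. limma 3.58.1 (lmFit and eBayes, R 4.3.3) compared 3 arrays with 3, two-sided, with Benjamini-Hochberg adjustment over 18244 genes at 0.05, and was tested on simulated data. Tables used Python 3.11.15 and pandas 2.3.3. The genes, lists and tests were chosen with earlier results of these data known. All 56 genes could be named, and of other lists up to 5 with the largest called differences, with further regulators and markers. Alternatives were other probe set rules, normalizations, control scalings, dim-gene filters, limma settings, a replicate block, treat and leaving out each array. Promoters were taken from RefSeq (GRCh38.p14). Scan batches were not analysed here.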

Additional observations from a re-analysis of the deposited data

How the results depend on the processing

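The 14 rises and 6 falls became 45 and 1 with hybridization control scaling and 47 and 1 with poly-A control scaling (median 0.24 and 0.35; all genes 9290 higher and 376 lower, and 12435 and 97; median of all genes 0.18 and 0.29). TIGD1 turned to 0.16 and 0.27. Treat against 1.2-fold gave 0 and 1 (all genes 175 and 87). The mean of all probe sets gave 17 rises and 2 falls (all genes 2250 and 2492). Trend and robust settings gave 19 rises and 12 falls (all genes 2440 and 3362). The median was 0.054 with the mean of probe sets, 0.072 with the second brightest, 0.0072 with repeated quantile normalization and 0.049 with equal array medians. Genes with a mean of at least 8, chosen after seeing the data, gave 1136 higher and 1554 lower. Leaving out an array gave 7 to 10 rises and 4 to 6 falls, medians of 0.015 to 0.034, and 1177 to 1474 higher and 1564 to 1912 lower of all genes.

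The replicate numbers do not pair the arrays: same-numbered deviations correlated between -0.133 and -0.032, and 0 of 6 arrays correlated best with their own number. With the replicate number as a block, 9 rose and 2 fell (all genes 1098 and 1293).

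Where at least 1 of the values passed the threshold, differences that turned above 0 with hybridization control scaling were SAR1B 0.15, SEC24A 0.16, SEC24B 0.21, SEC24C 0.011, COPA 0.071, COPG1 0.18, ARF3 0.10, ARF5 0.17, GBF1 0.17, LMAN1 0.13, LMAN2 0.15, MCFD2 0.21, KDELR1 0.031, SURF4 0.18, TRAPPC1 0.15, TRAPPC3 0.13, TRAPPC4 0.13, GOLGA2 0.13, GOSR1 0.018; with poly-A control scaling SAR1B 0.26, SEC16A 0.21, SEC24A 0.26, SEC24B 0.31, SEC24C 0.12, SEC31A 0.020, COPA 0.18, COPG1 0.28, ARF3 0.21, ARF5 0.28, GBF1 0.27, LMAN1 0.23, LMAN2 0.26, MCFD2 0.31, KDELR1 0.14, SURF4 0.29, TRAPPC1 0.26, TRAPPC3 0.24, TRAPPC4 0.23, GOLGA2 0.24, GOSR1 0.12, YKT6 0.20. With the mean of probe sets the sign turned, again with a call, for SEC24C 0.017, COPB1 -0.067, LMAN1 0.19, MCFD2 0.33, SURF4 0.16, GOSR1 0.011, and with the second brightest for SEC31A 0.21, COPA 0.11, COPB1 -0.26, MCFD2 0.40, SURF4 0.21, GOSR1 0.023. The sign also turned with neither value passing for SEC16A 0.11, SEC23A 0.093, YKT6 0.093 (hybridization controls), SEC23A 0.20 (poly-A controls), SEC23A 0.087, TMED3 -0.0038, YKT6 0.0018 (mean of probe sets), SAR1B 0.074, SEC23A 0.14, TMED3 -0.049, TRAPPC4 0.064, STX5 -0.076, YKT6 0.036 (second brightest), SEC24B 0.014, MCFD2 0.017 (equal array medians) and ARF1 -0.0030 (quantile normalization). The cause was not tested, apart from the constant the control scalings add to each array. With 3 arrays per group the median SE was 0.04, and intervals of the genes that did not pass reached -0.26 and 0.27.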

Other observations

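The median SD of the transport genes within a group was 0.04 among the arrays labelled shTIGD1 and 0.04 among those labelled shControl, against 0.06 and 0.06 over all genes. Differences in level between these sets were not taken into account.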
